A study of Mus musculus with 6 samples.

Results

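Voltage-gated sodium and calcium channels are the membrane proteins that open when a cell depolarizes, and 40 mouse genes that encode their subunits are described here in nuclei of the colon. The genes were chosen by symbol alone, as every gene of the Scn, Cacna, Cacnb, Cacng and Cacna2d series, among the 31053 genes that each of the 6 count matrices lists. The libraries hold single-nucleus RNA sequencing (10x Genomics) of wild-type C57BL/6J mice, from nuclei of the enteric nervous system (ENS), the nerve cells and glia that lie within the gut. Nuclei were sorted on the DNA dye DAPI and on INTACT, a tag on the nuclear envelope. Which cells carry the tag, and the age and number of the animals, are not given in the sources used here. Control is represented by 2 libraries and Stress, meaning 7 days of daily restraint, by 3. Dexamethasone, meaning 7 days of injections of this synthetic glucocorticoid, is represented by 1 library. Whether each library stands for its own animal is not in the labels, so a p-value here tells only of library-to-library spread, which may be technical.

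A sodium channel is built from a large alpha subunit that forms the pore (Scn genes ending in a) and small beta subunits (Scn genes ending in b) that tune its gating. In a calcium channel the pore is the Cacna1 subunit, a Cacnb subunit inside the cell brings it to the membrane, and a Cacna2d subunit outside the cell raises its surface level. The Cacng genes encode a related family, of which several members act on glutamate receptors rather than on calcium channels. In the gut, L-type calcium channels carry the calcium that contracts smooth muscle. N-type and P/Q-type channels trigger transmitter release from neurons, and sodium channels carry their action potentials.

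Of 11040 deposited barcodes, 3430 nuclei passed the filters and fell into 24 clusters. These were named from marker genes with the 40 channel genes left out of the clustering. Neuron-like nuclei numbered 527, glia-like 880, smooth muscle-like 314 and epithelium-like 524, so the labelled ENS cells made up less of the data than other cells, while 407 nuclei stayed unnamed. Among the neuron markers, Tubb3 was at 0 in neuron-like nuclei, and among the glia markers all 14 were found in glia-like nuclei. Libraries held 6057994 to 14838057 UMIs (unique molecular identifiers, each standing for 1 captured RNA molecule), and the median per kept nucleus was lowest in Stress 1 (1628.5) and Control 1 (1802) and highest in Dexamethasone (3970). Across libraries, 17 barcode sequences occurred more than once, 3 of them among kept nuclei. Levels below are UMIs of a gene per 1000000 UMIs of that class or cluster in that library (CPM). They depend on how often a gene's RNA is primed and counted, so they are compared between cells and never between genes.

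Of the 40 channel genes, 27 reached at least 30 UMIs over all kept nuclei. They were 6 of 10 calcium channel pore genes, 3 of 4 Cacna2d genes, all 4 Cacnb genes, 3 of 8 Cacng genes, 8 of 10 sodium channel pore genes and 3 of 4 sodium beta genes. Genes best known from other tissues were nearly undetected. Scn4a, the skeletal muscle sodium channel, had 1 UMI, Cacna1s, its calcium counterpart, had 2, and Cacna1f, the retinal L-type channel, had 1. Scn10a, a sodium channel of pain-sensing neurons, had 2 UMIs, and the T-type genes Cacna1g and Cacna1i had 4 and 18. The remaining genes under 30 UMIs were Cacng6 (0), Cacna2d4 (6), Scn4b (7), Cacng1 (9), Cacng3 (12), Cacng8 (22) and Cacng2 (25), while Cacng5 stood at the limit with 30.

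UMIs were summed per library over each class and tested in all 6 libraries with edgeR's quasi-likelihood test, the library as a block and Benjamini-Hochberg adjusted p under 0.05 as the threshold over all 6752 genes. Of the channel genes, 22 had enough UMIs for this test, and the 18 others had 0 to 181. Between neuron-like and glia-like nuclei, 19 of the 22 were higher in neurons, 2 were lower and 1 did not pass, beside 32.2% of all genes higher and 28.7% lower. Between smooth muscle-like and glia-like nuclei, 11 were higher in muscle, 5 lower and 6 did not pass (18.6% and 23.6% of all genes). Between neuron-like and smooth muscle-like nuclei, 14 were higher in neurons, 7 lower and 1 did not pass (28.2% and 22.5% of all genes). Median log2 differences over the 22 genes were 4.36, 0.89 and 2.51 in the same order, beside 0.07, -0.03 and 0.06 over all genes. A gene with few UMIs enters such a test only where some class holds it, so these counts describe the genes that passed.

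Sorted by these tests, 12 genes stood above both other classes in neurons, among them Cacna1a, Cacna1b, Cacna2d2, Cacnb1, Cacng7, Scn11a, Scn2a, Scn3a, Scn3b, Scn8a and Scn9a. In smooth muscle 7 did so, all of them calcium channel genes (Cacna1c, Cacna1d, Cacna1e, Cacna1h, Cacna2d1, Cacna2d3 and Cacnb2). In glia 2 did so, Scn7a and Cacng4, and Cacnb4 fitted none of the 3 patterns.

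**Figure D1:**
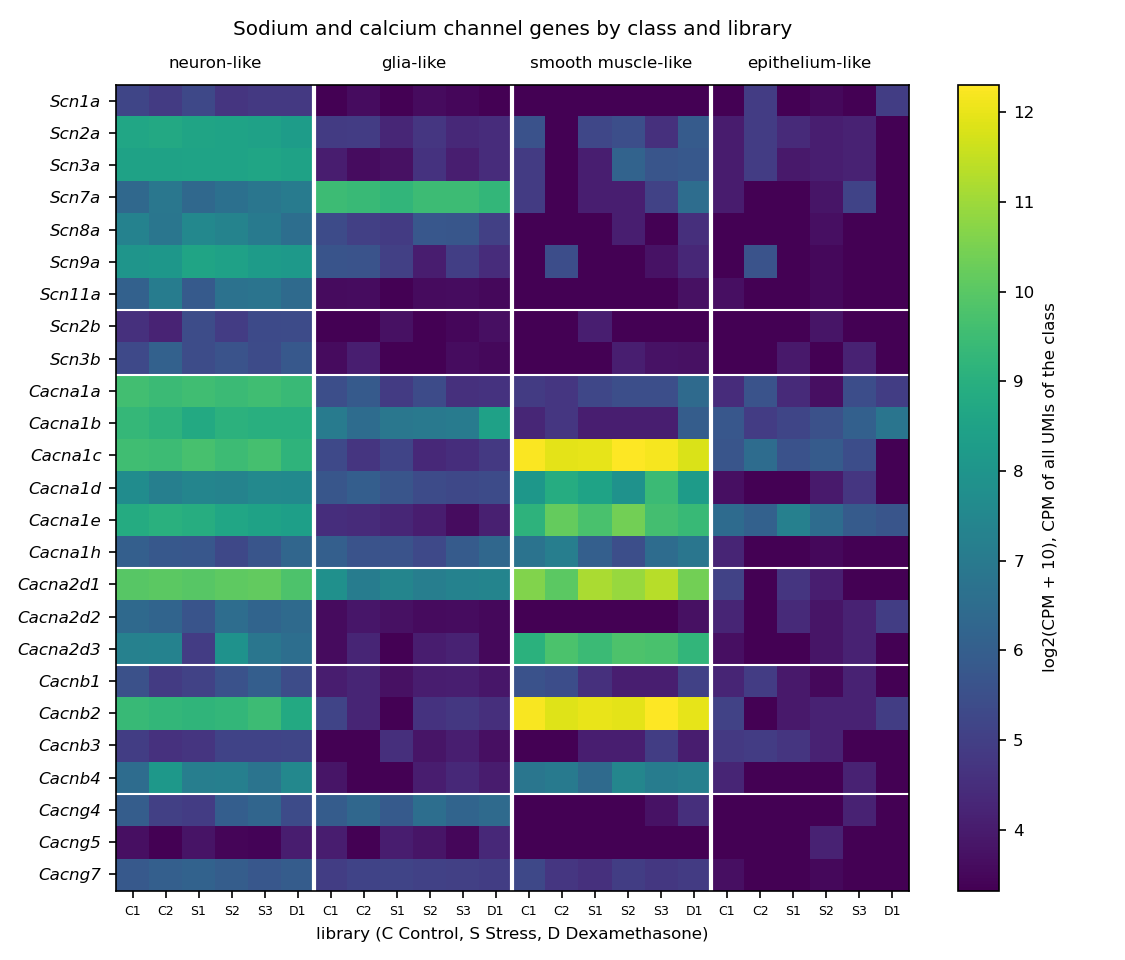
Level of 25 channel genes with at least 30 UMIs, as log2(CPM + 10), in neuron-like, glia-like, smooth muscle-like and epithelium-like nuclei of the 6 libraries (columns). The neuron columns are filled for most sodium channel genes, the muscle columns for Cacna1c and Cacnb2, and the glia columns for Scn7a.

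Scn7a encodes an atypical sodium channel that responds to the sodium level outside the cell rather than to voltage. In glia-like nuclei its level was 589.8 CPM at its lowest, 688 at the median and 699.8 at its highest. Neuron-like nuclei had 71.9, 97.3 and 124 CPM on the same terms, so the ranges of the 2 classes did not overlap in any library. Smooth muscle-like nuclei had 0 CPM in Control 2, where the limit that 3 UMIs allow is 49.96 CPM, and at most 24.4 in the other Control and Stress libraries, but 82.4 in Dexamethasone. On the log2 scale Scn7a was lower in neurons than in glia by -2.77 ± 0.23 (SE; edgeR adjusted p = 3.71e-10) and lower in muscle than in glia by -4.53 ± 0.32 (adjusted p = 6.82e-11). Outside the 3 classes, fibroblast-like nuclei held 92.0 to 324 CPM.

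Scn7a lies on chromosome 2 of GRCm38.p6 (66673426 to 66784910, minus strand), at the end of a row of sodium channel genes. Scn3a, Scn2a, Scn1a, Scn9a and Scn7a follow each other within 1327.79 kb, and Scn1a, Scn9a and Scn7a are neighbours with no other coding gene between them. Of these 5, Scn3a, Scn2a and Scn9a were higher in neurons than in both other classes and Scn1a had too few UMIs to be tested (88 in neurons, 3 in glia), so Scn7a and its neighbour Scn9a differed in opposite directions.

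To show the DNA ahead of genes with contrasting patterns, 200 bases upstream are printed for a glial gene (Scn7a), a neuronal gene of the same row (Scn2a), the gene of smallest p among neuron clusters (Scn11a) and the gene that changed with dexamethasone (Cacna1b). Each runs 5′ to 3′ on the gene's strand from 250 to 51 bases before the RefSeq start, and capitals mark matches to the motifs named after the sequences. The 4 were chosen after their values were seen.
Scn7a, chr2:66784961-66785160, minus strand: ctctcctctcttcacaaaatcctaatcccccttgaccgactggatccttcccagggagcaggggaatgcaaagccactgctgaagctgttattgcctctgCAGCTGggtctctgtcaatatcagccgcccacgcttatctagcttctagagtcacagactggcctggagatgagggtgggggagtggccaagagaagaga
Scn2a, chr2:65620519-65620718, plus strand: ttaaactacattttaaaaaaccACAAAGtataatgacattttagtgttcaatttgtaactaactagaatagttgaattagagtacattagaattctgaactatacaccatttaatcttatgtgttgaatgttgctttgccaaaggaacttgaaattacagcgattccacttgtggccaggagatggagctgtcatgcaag
Scn11a, chr9:119825507-119825706, minus strand: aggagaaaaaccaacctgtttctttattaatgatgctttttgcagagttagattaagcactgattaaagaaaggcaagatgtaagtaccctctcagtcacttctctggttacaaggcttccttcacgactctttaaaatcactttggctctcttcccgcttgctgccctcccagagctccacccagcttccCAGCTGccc
Cacna1b, chr2:24763203-24763402, minus strand: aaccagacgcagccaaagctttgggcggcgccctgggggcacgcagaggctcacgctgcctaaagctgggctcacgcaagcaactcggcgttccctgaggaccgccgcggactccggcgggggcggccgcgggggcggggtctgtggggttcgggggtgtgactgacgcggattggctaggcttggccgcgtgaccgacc

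These windows differed in base composition, from 32.5% G and C in Scn2a through 45.5% in Scn11a and 54.5% in Scn7a to 71.5% in Cacna1b. RefSeq starts were matched for 30 of the 40 genes, which gave 41 windows of this length beside 32851 for all genes in the table. Motifs were searched on both strands and do not share letters with each other in the windows printed. CANCTG, an E-box bound by neuronal and muscle bHLH factors, was in 38.25% of all windows and in 19 of the 41. ACAAAG, bound by SOX factors, was in 13.57% of all windows and in 8 of the 41. The palindromic motif of the glucocorticoid receptor, given by name only, was in 0.3318% of all windows and in 0 of the 41, and the CArG box of serum response factor, likewise, was in 1.157% and in 0. Scn7a and Scn11a each held a CANCTG, starting 150 and 59 bases before the start, Scn2a held an ACAAAG at 228 bases, and Cacna1b held no match to any of the 4. A match is a run of letters and no evidence of binding.

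Scn3a, a sodium channel of developing and adult neurons, had 352 to 378 CPM in neurons, and 2.28 to 14.7 in glia. Its log2 difference was 5.54 ± 0.29 (adjusted p = 1.27e-13).

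Scn11a encodes a tetrodotoxin-resistant channel known from sensory neurons. It had 48.4 CPM at its lowest, 85.4 at the median and 126 at its highest in neurons, and 0 to 2.29 in glia, a log2 difference of 5.42 ± 0.32 (adjusted p = 8.53e-13). In smooth muscle-like nuclei only 1 UMI was found, in Dexamethasone, so the ratio of the pooled levels of neurons to muscle, 92.6, has an exact 95% interval of 16.5 to 3668 from counting error alone. Scn9a, a channel that amplifies small depolarizations in sensory and autonomic neurons, had 250 to 371 CPM in neurons and 6.28 to 40.5 in glia. In muscle it was found in 3 of 6 libraries with 6 UMIs, and its log2 difference of neurons from muscle was 5.67 ± 0.46 (adjusted p = 3.76e-10).

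Scn8a, the channel of axon initial segments and nodes, had 85.7 to 173 CPM in neurons and 19.3 to 44.0 in glia, with 5 UMIs in muscle. It was higher in neurons than in glia by 2.06 ± 0.24 (adjusted p = 9.49e-08) and lower in muscle than in glia by -2.66 ± 0.57 (adjusted p = 5.27e-04). Kept without the filter on mitochondrial UMIs, muscle and glia no longer differed past the threshold (-0.83, adjusted p = 0.0673). Under the same change the Scn9a difference between muscle and glia went from -1.92 (adjusted p = 0.0258) to 0.04 (adjusted p = 0.949). Scn2a, which starts action potentials in many neurons, had 303 to 424 CPM in neurons and was higher there than in glia by 4.68 ± 0.24. Scn2a also passed in muscle over glia (1.07, adjusted p = 0.0238) but lost that call in DESeq2 (adjusted p = 0.0543) and without the Dexamethasone library (0.69, adjusted p = 0.236). The call was also lost without Control 1, Stress 1 or Stress 2 (adjusted p = 0.0523, 0.0678 and 0.0536) and without both shallow libraries (0.120). Stricter nuclei (0.45, adjusted p = 0.474), thinned UMIs (0.230), no filter on low counts (0.0943) and channel genes kept in clustering (0.0608) lost it too.

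The beta subunits were sparse. Scn3b, the only sodium beta gene with enough UMIs for the test, had 29.96 to 59.0 CPM in neurons and 0 to 6.85 in glia, a log2 difference of 4.08 ± 0.41 (adjusted p = 6.73e-09). In muscle it had 3 UMIs, and the ratio of the pooled levels of neurons to muscle, 13.01, has an exact 95% interval of 4.38 to 63.7. Outside the 3 classes, lymphatic endothelium-like nuclei held 20.6 to 135 CPM of Scn3b from 16 UMIs, a pooled 47.5 against 37.5 in neurons. Of the untested genes, Cacnb3, a beta subunit of neuronal calcium channels, had 105 of its 181 UMIs in neurons, Scn2b had 106 of its 119 UMIs in neurons and Scn1a 88 of its 100.

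**Figure D2:**
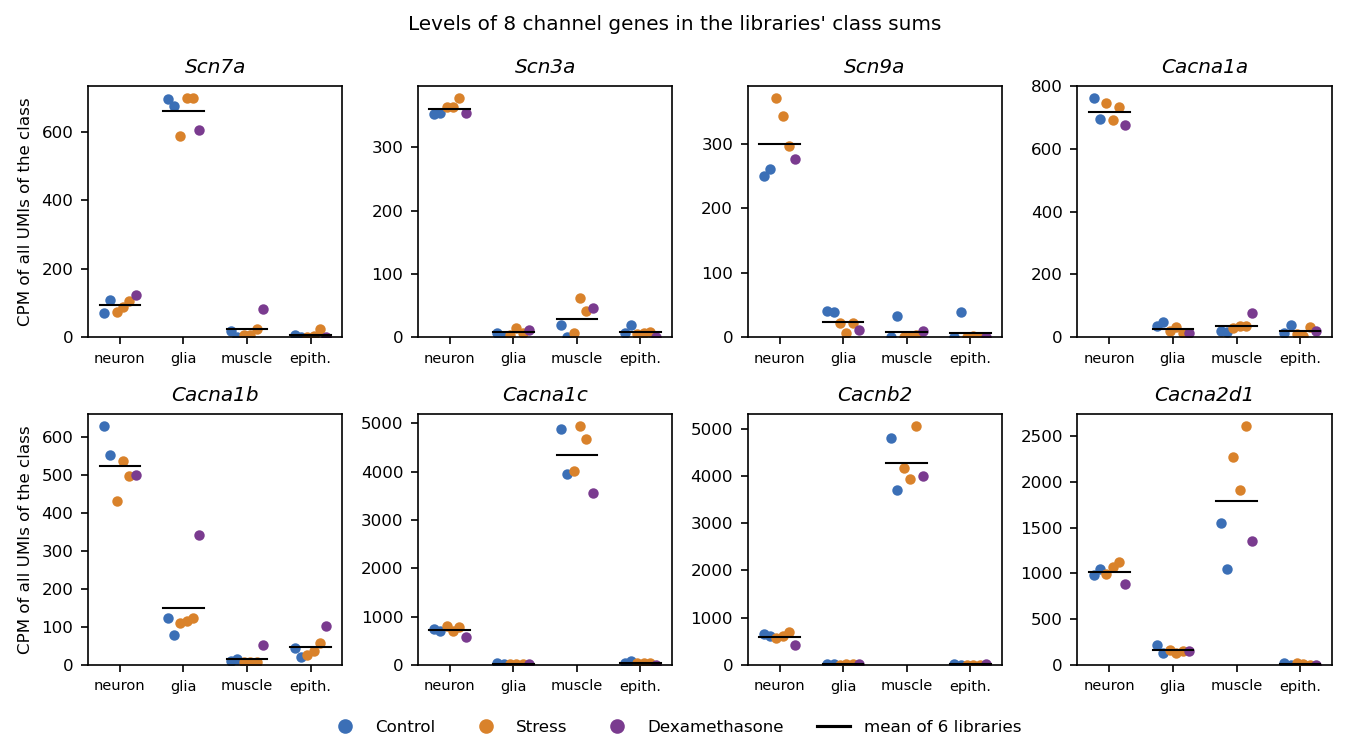
Level in CPM of 8 channel genes in neuron-like, glia-like, smooth muscle-like and epithelium-like nuclei, 1 point per library and a line at the mean of the 6. Scn7a sits highest in glia, Scn3a, Scn9a, Cacna1a and Cacna1b in neurons, and Cacna1c and Cacnb2 in muscle at 3564 CPM or more.

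Some calcium channel genes were higher in smooth muscle-like nuclei than in neurons and glia. Cacna1c, the pore of the L-type channel through which visceral and vascular muscle takes up calcium, had 3564 CPM at its lowest, 4346 at the median and 4950 at its highest in muscle. Neuron-like nuclei had 569, 725 and 811 CPM and glia-like nuclei 10.5, 16.9 and 29.9, so the 3 classes did not overlap. Muscle was above glia by 7.86 ± 0.26 (adjusted p = 9.14e-16) and above neurons, which were lower by -2.51 ± 0.19 (adjusted p = 1.18e-10), on the log2 scale.

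Cacnb2, the beta subunit that accompanies Cacna1c in heart and smooth muscle, had the same order. Muscle had 3697 to 5066 CPM, neurons 430 to 698 and glia 0 to 25.6, the 0 being Stress 1. The muscle difference from glia was 8.22 ± 0.30 (adjusted p = 2.35e-15), the largest of the 22 genes in that comparison. Cacna2d3 and Cacna2d1, which encode the outer subunit, were also higher in muscle than in neurons and glia. Cacna2d3 had 519 to 884 CPM in muscle, 20.2 to 231 in neurons and 0 to 9.13 in glia, and was above glia by 7.21 ± 0.37 (adjusted p = 3.53e-13). Its neuron value was lowest in Stress 1 at 20.2, from 5 UMIs, and 85.7 or more elsewhere. Cacna2d1, a binding target of gabapentin, had 1049 to 2613 CPM in muscle, 884 to 1125 in neurons and 126 to 219.7 in glia.

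Muscle was above neurons for Cacna2d1 in each library, by 1049 against 1048 CPM in Control 2 and 2613 against 1125 in Stress 3. The log2 difference of neurons from muscle was -0.70 ± 0.19 (adjusted p = 0.00410), and it missed the threshold without the 2 shallowest libraries (-0.62, adjusted p = 0.0692) and without the mitochondrial filter (-0.23, adjusted p = 0.396). Cacna1e, the R-type pore, had 557 to 1339 CPM in muscle, 326.5 to 506 in neurons and 2.29 to 12.8 in glia. Neurons were below muscle by -0.98 ± 0.19 (adjusted p = 1.40e-04) and above glia by 5.75 ± 0.28 (adjusted p = 6.07e-14). Cacna1d, the other L-type pore, which opens at more negative voltages, had 228 to 687 CPM in muscle, 138 to 199 in neurons and 28.6 to 54.8 in glia. Neurons were below muscle for Cacna1d by -1.05 ± 0.21 (adjusted p = 1.97e-04). Of the 2 muscle-like clusters described below, cluster 4 had 168 to 293 CPM, a range that overlaps that of neurons. Outside the 3 classes, fibroblast-like nuclei held 129 to 535 CPM of Cacna1d.

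Cacna1h, the T-type pore, was the gene that least separated the classes. Neuron-like nuclei had 28.7 to 67.6 CPM and glia-like nuclei 29.3 to 69.8, and the log2 difference was 0.02 ± 0.19 (adjusted p = 0.944). Muscle had 34.5 to 133 CPM and was above glia by 0.70 ± 0.22 (adjusted p = 0.0115), a call that was lost without Control 2 (0.50, adjusted p = 0.0806) and without the filter on low counts (0.56, adjusted p = 0.184). Cacnb4, a beta subunit of neurons, had 80.9 to 269.7 CPM in neurons and 77.1 to 166 in muscle, with a log2 difference of 0.23 ± 0.26 (adjusted p = 0.482), and 0 to 10.3 in glia.

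Cacna1a and Cacna1b, the P/Q-type and N-type pores of nerve terminals, were higher in neurons than in glia and muscle. Cacna1a had 678 to 762 CPM there, 13.7 to 47.9 in glia and 16.7 to 75.8 in muscle, and exceeded glia by 4.86 ± 0.26 (adjusted p = 2.83e-13). Cacna1b had 432 CPM at its lowest, 519 at the median and 631 at its highest in neurons. Unlike Cacna1a, it was readily found in glia, at 79.9 to 125 CPM in Control and Stress and 342 in Dexamethasone. Its log2 difference of neurons from glia was 2.03 ± 0.24 (adjusted p = 1.05e-07), and muscle was below glia by -3.04 ± 0.40 (adjusted p = 9.29e-07). Cacna2d2, an outer subunit of neurons, had 40.3 to 83.8 CPM in neurons, at most 4.56 in glia and 1 UMI in muscle, where the ratio of neurons to muscle, 74.6, has an exact 95% interval of 13.3 to 2956.

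Smaller differences were measured for the other genes. Cacnb1, best known as the beta subunit of skeletal muscle, was higher in neurons than in glia by 2.57 ± 0.36. Neurons were above muscle by 1.11 (adjusted p = 0.0239), in 4 of 6 libraries. That call was lost without Stress 2 (0.94, adjusted p = 0.0936) and without Stress 3 (0.56, adjusted p = 0.312). Cacng7 was higher in neurons than in glia by 1.19 ± 0.20. Cacng4 had 48.3 to 85.8 CPM in glia, 20.2 to 66.0 in neurons and 5 UMIs in muscle. Muscle was below glia for Cacng4 by -3.85 ± 0.52 (adjusted p = 1.60e-06). Neurons were below glia by -0.58 ± 0.25 (adjusted p = 0.0479), in 4 of 6 libraries, and the call was lost in DESeq2 (-0.65, adjusted p = 0.0685) and without Control 2, Stress 2 or Dexamethasone (adjusted p = 0.0799, 0.0961 and 0.162).

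Of the 19 genes higher in neurons than in glia, all 19 were higher in each of the 6 libraries, as were 13 of the 14 higher in neurons than in muscle and 9 of the 11 higher in muscle than in glia. The genes were called from these same 6 libraries, so this agreement is no separate support for the calls. Epithelium-like nuclei, taken as cells outside the nervous system, had at most 39.8 CPM of Cacna1a and Scn9a. Cacna1b reached 58.1 CPM there in Control and Stress, and Cacna1e 41.4 to 140. Median UMIs per nucleus were 4463 in neuron-like, 3221 in glia-like, 2399.5 in smooth muscle-like and 2395 in epithelium-like nuclei. Markers of other classes were present at low levels in each class: the 17 neuron markers summed to 200 to 472 CPM in glia-like nuclei and to 8478 to 11846 in neuron-like nuclei.

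Neuron-like nuclei formed 5 clusters, and channel genes differed among them. Cluster 11 (130 nuclei) carried Nos1, the enzyme of nitric oxide neurons, and cluster 13 (107 nuclei) the neuropeptides Vip and Gal. Cluster 13 also had Nos1, at a pooled 1838 CPM against 2995 in cluster 11. Cluster 16 (78 nuclei) was led by the sensory neuron peptide Nmu, cluster 19 (65 nuclei) had Penk and Tac1, peptide genes of excitatory motor neurons, among its leading genes, and cluster 9 (147 nuclei) had Sst and Grik1 among its leading genes. Of 20 channel genes tested across these clusters (sums of at least 5 nuclei, library as a block), 15 passed, beside 38% of all genes. The clusters were drawn from other genes of the same nuclei, so the test does not stand apart from the clustering.

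**Figure D3:**
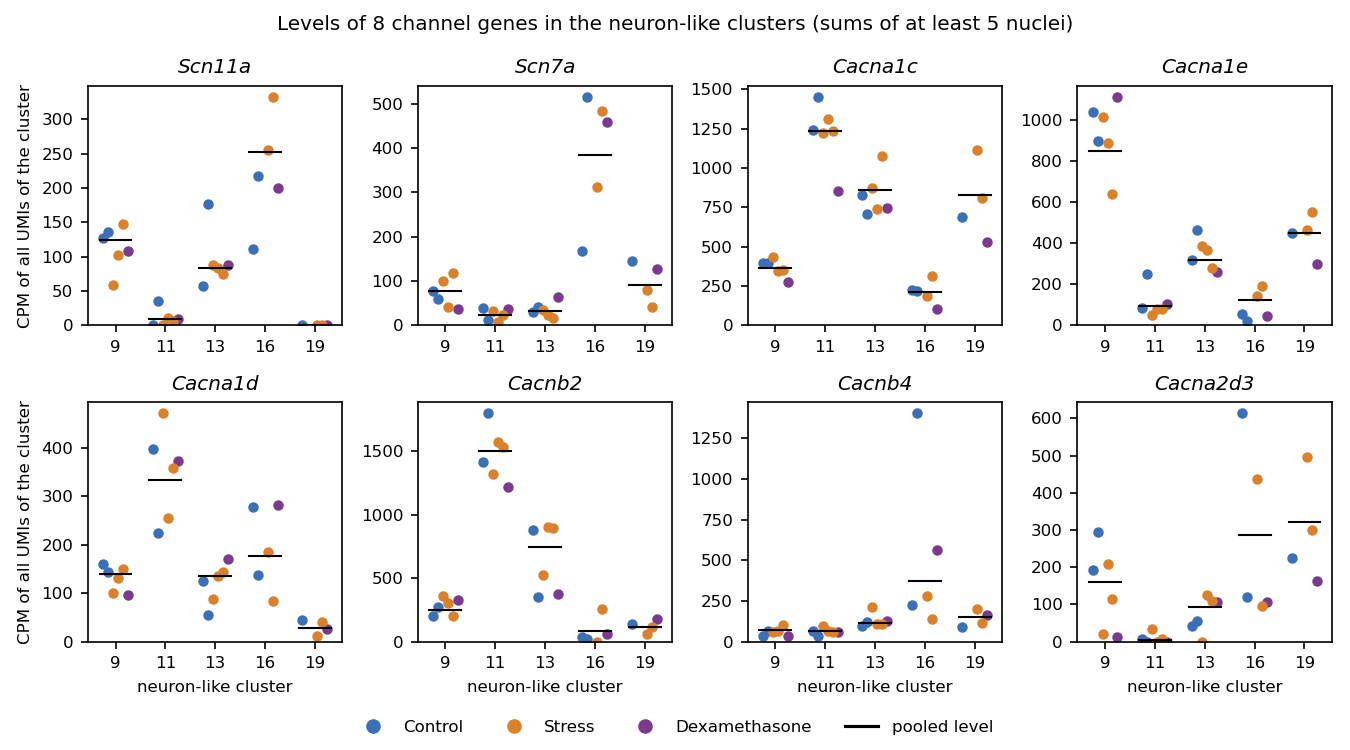
Level in CPM of the 8 channel genes of smallest p across the 5 neuron-like clusters, 1 point per library with at least 5 nuclei and a line at the pooled level. Cacna1c and Cacnb2 sit highest in cluster 11, Cacna1e in cluster 9, and Scn11a and Scn7a in cluster 16.

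The L-type pore genes and Cacnb2 were highest in the Nos1-rich cluster 11. Cacna1c had 851 to 1453 CPM in it, Cacnb2 1215 to 1796 and Cacna1d 224 to 472. Each was higher there than in every other cluster with at least 5 nuclei in 6 of 6 libraries. Cluster 16 (2 nuclei) and cluster 19 (4) were not compared in Stress 1, nor cluster 19 (2) in Control 2. Other clusters held these genes too: pooled Cacna1c was 1234 CPM in cluster 11, 859 in cluster 13 and 828 in cluster 19. Pooled Cacnb2 was 1499 CPM in cluster 11 and 746 in cluster 13, and pooled Cacna1d 335 in cluster 11 and 176 in cluster 16. The lowest pooled levels were 216 CPM for Cacna1c and 83.0 for Cacnb2, both in cluster 16, and 28.4 for Cacna1d in cluster 19. Adjusted p was 6.11e-10 for Cacna1c, 3.99e-08 for Cacnb2 and 3.57e-08 for Cacna1d in edgeR. Cluster 11 nearly lacked Cacna2d3, with a pooled 5.01 CPM against 322 in cluster 19 (adjusted p = 1.16e-06), and Scn11a, with a pooled 9.02 CPM.

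Cacna1e marked cluster 9, with 640 to 1108 CPM, again the highest of the clusters with at least 5 nuclei in 6 of 6 libraries. It had 300 to 552 CPM in cluster 19 and a pooled 95.2 in cluster 11 (adjusted p = 2.40e-09). The Nmu cluster 16 held the most Scn11a, at 111, 218, 255, 332 and 200.01 CPM in Control 1, Control 2, Stress 2, Stress 3 and Dexamethasone, and was highest in 4 of those 5 libraries. Scn11a had 0 UMIs in cluster 19, which allows up to 5.69 CPM, while clusters 9 and 13 had pooled levels of 124 and 83.2 CPM (adjusted p = 2.67e-10). Scn7a was also highest in cluster 16, at 167 to 515 CPM against 7.71 to 146 in the others (adjusted p = 3.37e-10).

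Cacnb4 in cluster 16 had 1405 CPM in Control 2, from 5 nuclei, and 139 to 565 in the other libraries, and it was highest in that cluster in 5 of 5 libraries (adjusted p = 4.08e-07). Over all its nuclei cluster 16 had a median of 1039 UMIs per nucleus, but depth differed between libraries. Its 41 Dexamethasone nuclei held 84997 UMIs, while the 5 of Control 2 held 50528 and the 12 of Stress 2 held 247345. Scn9a, among the 7 other genes that passed, was highest by pooled level in clusters 19 (525 CPM) and 16 (433) and lowest in cluster 11 (179). The 5 genes that did not pass were Scn3a (adjusted p = 0.0513), Scn2a, Scn8a, Cacna1b and Cacng7, so the N-type pore was carried by all 5 clusters at pooled levels of 457 to 623 CPM. Calls for Cacna1a, Cacna1h and Cacna2d1 depended on the libraries kept: without the 2 shallowest, Cacna1a (adjusted p = 0.132), Cacna1h (0.173) and Cacna2d1 (0.168) missed the threshold.

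Glia-like nuclei formed 3 clusters, whose leading genes included Frzb in cluster 0 (410 nuclei), the activity-induced genes Nr4a3 and Crem in cluster 1 (321 nuclei) and Col28a1 in cluster 8 (149 nuclei). Of 3 channel genes tested, Scn7a passed (adjusted p = 2.46e-12, beside 26% of all genes). It had 1616 to 2696 CPM in cluster 8, 328 to 504 in cluster 0 and 426 to 636 in cluster 1, so cluster 8 lay apart in all 6 libraries. The Scn7a range of neuron cluster 16, 167 to 515 CPM, overlapped those of clusters 0 and 1. Cacna1b (adjusted p = 0.0974) and Cacna2d1 (adjusted p = 0.347) did not pass, though Cacna1b did without Control 2 (adjusted p = 0.0484). Cacng4, not tested here, had a pooled 67.4, 82.3 and 9.68 CPM in clusters 0, 1 and 8. In neuron clusters 16 and 9 its pooled level was 106 and 79.2 CPM, and in the other neuron clusters 26.1 to 28.4.

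The 2 smooth muscle-like clusters are given as values, without a test. Cluster 4 (231 nuclei), with Myh11 and Actg2, had a pooled 4784 CPM of Cacna1c and 1026 of Cacna1e, and cluster 15 (83 nuclei), led by Ak5 and Hs3st4, had 2774 and 228. Cluster 15 had 10 of 10 smooth muscle markers, with less Myh11 (3940 CPM against 6630) and Des (134 against 648) than cluster 4. Of the markers of interstitial cells of Cajal, the pacemaker cells of gut muscle, it had more Kit (322 CPM against 30.7) and Ano1 (1665 against 177) and less Etv1 (30.7 against 58.9). The part of such cells in the values of cluster 15 was not tested. Cluster 15 had more Cacna2d1, a pooled 3711 CPM against 1332 in cluster 4, and more Cacna1d, 822 against 254. Its Cacna1d ranged from 229 CPM in Stress 2 to 1421 in Stress 3, leaving out Control 2 with 2 nuclei. Cacnb2 was close in both, at 4656 and 4298 CPM.

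Proteins that bind or regulate these channels were followed in 3 lists. Of the sodium channel partners, 10 of 11 were tested between classes: 7 were higher and 3 lower in neurons than in glia, beside 32.2% and 28.7% of all genes. Fgf14 and Fgf13, intracellular factors that bind the sodium channel tail, were higher by 6.84 ± 0.34 and 4.09 ± 0.27, and Ank2, which anchors membrane proteins, by 2.18 ± 0.18. Nrcam, a cell adhesion molecule of nodes, was lower in neurons than in glia by -2.06 ± 0.19, and Ank3, the anchor of sodium channels at the initial segment, by -1.30 ± 0.18.

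Of 14 calcium channel regulators, 8 were tested, of which 7 were higher in neurons than in glia and 1 lower (32.2% and 28.7% of all genes). Rimbp2 and Rims2, which tether calcium channels at release sites, were higher by 6.57 ± 0.36 and 4.12 ± 0.28. Gem, a small GTPase that holds calcium channels back, was lower in neurons than in glia by -3.25 ± 0.34. Stac, an adaptor of L-type channels, was higher than in glia in neurons (6.73 ± 0.63) and in muscle (7.14 ± 0.66). In muscle against glia, 3 regulators were higher and 1 lower (18.6% and 23.6% of all genes). Among the neuron clusters 4 of 7 regulators passed, beside 38% of all genes, and Stac, a leading gene of cluster 19, had the smallest p (adjusted p = 1.85e-10).

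In the third list, the sodium leak channel Nalcn and its partners with other cation channels, 5 of 10 genes were tested and all 5 were higher in neurons than in glia (32.2% of all genes). Fam155a and Unc79, partners of the leak channel, were higher by 6.71 ± 0.30 and 5.14 ± 0.28, and the pore Nalcn by 1.56 ± 0.21. In muscle against glia the list was split, with 2 genes higher and 2 lower (18.6% and 23.6% of all genes). Fam155a (3.72 ± 0.28) was among the higher ones, and Unc80 (-4.11 ± 0.35) and Nalcn (-3.08 ± 0.38) were lower.

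The effect of 7 days of restraint was tested in Stress against Control for each class. In neuron-like nuclei 0 of 25 channel genes passed, beside 0% of 8066 genes, with 1 channel gene and 804 genes at an unadjusted p under 0.05. DESeq2 called 14 genes and 0 channel genes. Scn2b had the smallest p, at 13.5 and 8.43 CPM in the Control libraries and at 32.3, 19.9 and 30.5 in those of Stress. Its groups did not overlap, yet its log2 difference was 1.10 ± 0.45 with adjusted p = 0.474 (87 UMIs in all). Next were Cacna1b (-0.32 ± 0.17), Cacna1h (-0.55 ± 0.29), Scn9a (0.33 ± 0.19) and Cacna1e (-0.31 ± 0.20). Without the 2 shallowest libraries, Control 1 and Stress 1, Cacnb4 passed (-1.29 ± 0.24). This then rested on Control 2 alone, at 269.7 CPM against 80.9 in Control 1. In Control 2, the 5 nuclei of cluster 16 held 50528 of 355971 neuron UMIs and had 1405 CPM of Cacnb4. Their part in this difference was not tested.

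In glia-like nuclei 0 of 11 channel genes passed, beside 2.09% of all genes, with 2 channel genes and 858 genes at an unadjusted p under 0.05. Scn9a had 40.5 and 38.8 CPM in the Control libraries, then 22.6, 6.28 and 21.8 in the Stress libraries, groups that did not overlap. Its log2 difference was -1.25 ± 0.48 (adjusted p = 0.253; 65 UMIs). Cacna1a had 34.1 and 47.9 CPM in Control, while Stress had 19.3, 31.4 and 13.7, with -1.02 ± 0.44 (adjusted p = 0.329). Cacna1d (-0.61 ± 0.35), Cacna1c (-0.66 ± 0.57) and Cacna2d1 (-0.28 ± 0.25) followed.

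In smooth muscle-like nuclei 0 of 8 channel genes passed, beside 0.353% of all genes, with 1 channel gene and 318 genes at an unadjusted p under 0.05. Cacna2d1 had 1547 and 1049 CPM in Control, while Stress had 2277, 1912 and 2613. All Stress values lay above both Control values, with a log2 difference of 0.70 ± 0.25 and adjusted p = 0.292. It passed without the 2 shallowest libraries (1.00 ± 0.31, adjusted p = 0.0435), where Control 2, with 23 muscle-like nuclei, was the only Control library left. Cluster 15, the one with more Cacna2d1, made up 14.5% and 8.70% of muscle-like nuclei in Control and 29.4%, 26.8% and 41.6% in Stress. The 5 markers of interstitial cells of Cajal, of which Kit and Ano1 were higher in that cluster, summed to 769 and 916 CPM of muscle-like nuclei in Control and to 651, 545 and 1270 in Stress, and their part in the difference was not tested. Within cluster 15 the difference was 0.18 (adjusted p = 0.896) and within cluster 4 it was 0.30 (adjusted p = 0.756). Cacna1h (-0.98 ± 0.53), Cacna2d3 (0.17 ± 0.29), Cacna1d (0.23 ± 0.43) and Cacna1e (0.12 ± 0.35) followed.

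Whether stress acted differently in neurons and glia was tested for 25 channel genes, and 0 passed, beside 0.207% of all genes, with 2 channel genes and 667 genes at an unadjusted p under 0.05. Scn9a came nearest, with a stress effect higher in neurons than in glia by 1.52 ± 0.48 (adjusted p = 0.250). No partner gene passed in Stress or in Dexamethasone against Control in any class (edgeR), and Cabp1 in Stress glia came nearest (-2.05 ± 0.51, adjusted p = 0.0532).

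Dexamethasone was compared with Control in a fit of all 6 libraries. With 1 Dexamethasone library, its spread is taken from Control and Stress. In glia-like nuclei 1 of 12 channel genes passed, beside 5.94% of all genes (5.3% higher). That gene was Cacna1b, the N-type pore, at 124 and 79.9 CPM in the Control libraries, at 110, 115 and 125 in those of Stress, and at 342 with dexamethasone (230 UMIs). The Dexamethasone value stood alone above the other 5. Its log2 difference from Control was 1.83 ± 0.29, a fold of 3.55 (adjusted p = 6.31e-04), and 1.85 (adjusted p = 0.00210) in DESeq2. Against Stress it was 1.68 ± 0.26 (adjusted p = 9.86e-04, beside 2.93% of all genes), a comparison that shares the Dexamethasone library.

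**Figure D4:**
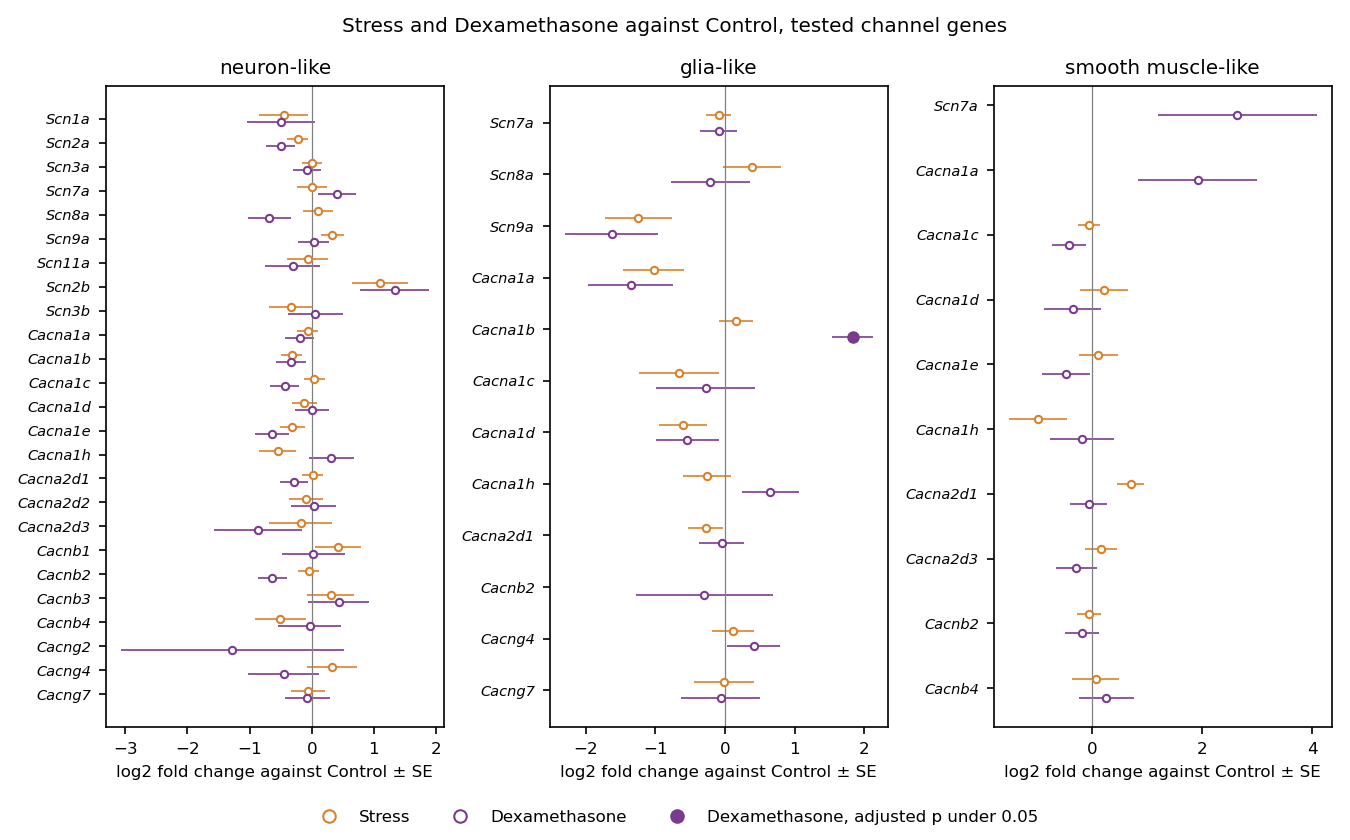
Log2 difference from Control with its SE for channel genes tested in neuron-like, glia-like and smooth muscle-like nuclei, for Stress and for Dexamethasone. Filled points have an adjusted p under 0.05, and Cacna1b in glia under Dexamethasone (1.83) is the filled one.

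Neuron-like nuclei did not show the same rise. Cacna1b had 631 and 553 CPM there in Control and 501 in Dexamethasone, and the dexamethasone effect in neurons minus that in glia was -2.11 ± 0.40 (adjusted p = 0.0128, beside 0.2% of all genes; adjusted p = 0.0838 in DESeq2). In smooth muscle-like nuclei Cacna1b had 9.61 and 16.7 CPM in Control, between 6.90 and 7.01 in Stress, and 52.7 with dexamethasone, from 16 UMIs. Epithelium-like nuclei had 44.7 and 19.9 CPM in Control and 103.5 in Dexamethasone, from 5 UMIs. So the Dexamethasone library had the highest Cacna1b level in glia-like, smooth muscle-like and epithelium-like nuclei. Epithelium-like nuclei numbered only 8 in Dexamethasone, against 28 fibroblast-like and 45 lymphatic endothelium-like nuclei. Fibroblast-like nuclei had 0 to 92.1 CPM from 12 UMIs, and lymphatic endothelium-like nuclei 0 to 19.9 from 2 UMIs. In neither was Dexamethasone the highest library. The remaining classes are not compared here. The 17 neuron markers summed to 350 and 226 CPM in Control glia-like nuclei, 200 to 413 in Stress and 472 in Dexamethasone, and the 10 smooth muscle markers to 149 and 194, 203 to 372 and 762. The part of these markers in the Cacna1b result was not tested. Cell Ranger's version also differed, so its part and that of dexamethasone cannot be told apart.

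Cacna1b was then compared within each glia cluster. Cluster 1 made up 71.7% of glia-like nuclei in Dexamethasone, 16.3% and 13.8% in Control and 16.1%, 48.3% and 60.3% in Stress. In it, Cacna1b had 128 and 77.8 CPM in Control, between 120 and 166 in Stress, and 376 with dexamethasone, a log2 difference of 1.96 (adjusted p = 0.00292). In cluster 8 it had 129 and 40.5 CPM in Control and 548 in Dexamethasone, a difference of 2.47 that missed the threshold (adjusted p = 0.0652). Cluster 0 went the other way, with 121 and 86.6 CPM in Control and 29.6 in Dexamethasone. There the Dexamethasone library had 3 UMIs, and its ratio to the pooled Control level, 0.287, has an exact 95% interval of 0.0577 to 0.880.

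**Figure D5:**
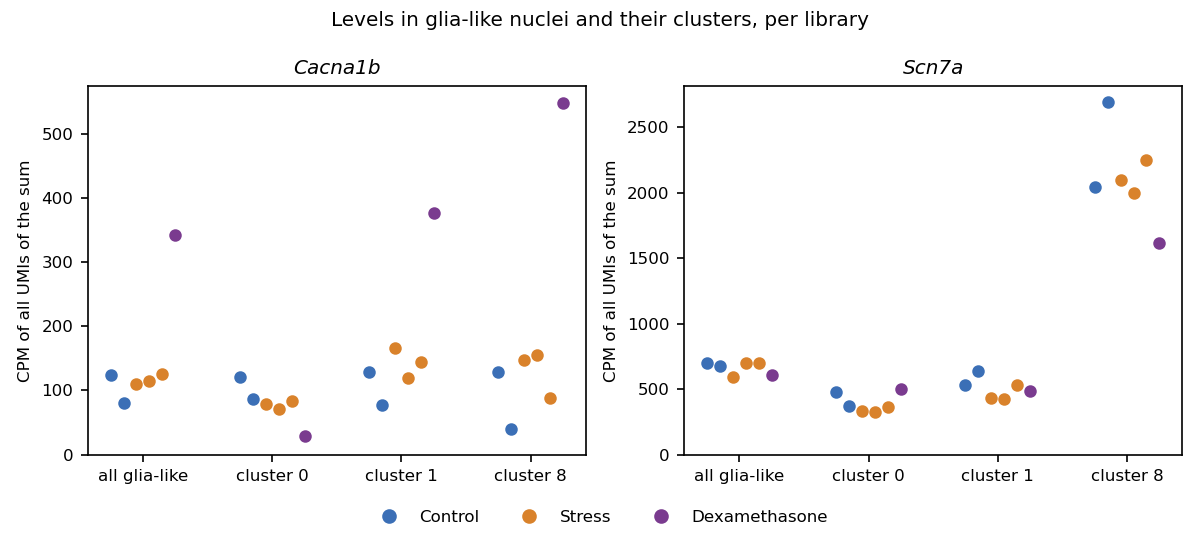
Level in CPM of Cacna1b and Scn7a in all glia-like nuclei and in clusters 0, 1 and 8, 1 point per library. Cacna1b is highest in Dexamethasone in clusters 1 (376) and 8 (548) and lowest there in cluster 0 (29.6), while Scn7a is highest in cluster 8 in every library.

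The other channel genes of glia did not pass. Scn9a had 11.9 CPM in Dexamethasone against 40.5 and 38.8 in Control (-1.63 ± 0.67, adjusted p = 0.186), and Cacna1a 14.9 against 34.1 and 47.9 (-1.36 ± 0.61, adjusted p = 0.229). The Stress values of both genes, given above, are compared with the same Control libraries. Cacna1h (0.65 ± 0.40) and Cacna1d (-0.54 ± 0.45) followed, and Scn7a, higher in glia than in neurons and muscle, had 605 CPM against 697.6 and 678. Among partner genes Gem was higher in Dexamethasone than in Stress by 1.42 ± 0.32 (adjusted p = 0.0187), and by 1.06 ± 0.34 over Control (adjusted p = 0.0794).

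In neuron-like nuclei 0 of 26 channel genes passed under dexamethasone, beside 0% of 9282 genes, with 3 channel genes and 958 genes at an unadjusted p under 0.05. DESeq2 called 13 genes and 0 channel genes. Cacnb2 had the smallest p, with 430 CPM in Dexamethasone against 650 and 604 in Control (-0.63 ± 0.23, adjusted p = 0.370). Scn2b followed (1.33 ± 0.55, adjusted p = 0.427), then Cacna1e (-0.64 ± 0.27), Scn2a (-0.50 ± 0.24) and Scn8a (-0.68 ± 0.34). Cluster 16, which was lowest in Cacnb2, made up 58.6% of neuron-like nuclei in Dexamethasone and 5.10% to 12% in the other libraries. The levels are of summed UMIs, however, and of these cluster 16 held 84997 of 606523 in Dexamethasone. It held 53839 of 667515 and 50528 of 355971 in Control, and 7525 of 247882, 247345 of 1253662 and 165799 of 1378163 in Stress. The part of cluster 16 in the Cacnb2 difference was not tested. Within clusters 11 and 13 the Cacnb2 difference was -0.38 and -0.87, and within clusters 9, 16 and 19 it was 0.46, 0.93 and 0.30, all with adjusted p of 0.567 or more.

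In smooth muscle-like nuclei 0 of 10 channel genes passed under dexamethasone, beside 0.982% of all genes, with 0 channel genes and 449 genes at an unadjusted p under 0.05. Scn7a had 82.4 CPM in Dexamethasone against 19.2 and 0 in Control (2.64 ± 1.44, adjusted p = 0.524), and Cacna1a 75.8 against 19.2 and 16.7 (1.92 ± 1.08, adjusted p = 0.538). The 14 glia markers summed to 584 CPM in these Dexamethasone nuclei and to 16.7 to 175 in the other libraries, and the neuron markers to 521 and 98.1 to 331. Their part in the Scn7a and Cacna1a values was not tested. The muscle's own genes lay closer to Control: Cacna1c differed by -0.41 ± 0.31, Cacna1e by -0.47 ± 0.44 and Cacna2d3 by -0.28 ± 0.37.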

How the data were processed

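The deposited values are UMI counts per gene and barcode, whole numbers, made by the authors with Cell Ranger. Per the file headers the version was 4.0.0 for Control and Stress and 5.0.1 for Dexamethasone, while the submitters' processing notes name versions 5 and 5.0 and the mm10 build. The remaining deposited files name the genes and barcodes. The treatment of intronic reads is not given in the sources used here. No column of the matrices belongs to a sample outside the series.

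Barcodes needed 300 genes or more and no more than 5% mitochondrial UMIs, which 3461 of 11040 met, and scrublet removed 31 doublets (0.896%). Counts were scaled to 10000 per nucleus. The 2000 most variable genes, channel genes left out, gave 30 principal components, 15 neighbours and Leiden clusters at resolution 1 (scanpy 1.11.5, leidenalg 0.10.2, python 3.11.15). Clusters were named by marker lists, from the mean log2 fold of each list (CPM with 10 added) over the median cluster, with a score of at least 1.5 and at least 3 markers, each in at least 10% of nuclei. This score and threshold were set after seeing the clusters. Cluster 16 kept its name with a median UMI count, over all its nuclei with 41 from Dexamethasone, 0.348 times that of its libraries.

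UMIs were summed per library over each class or cluster and tested with edgeR 4.0.16 (R 4.3.3, limma 3.58.1; filterByExpr, TMM, quasi-likelihood F-test, Benjamini-Hochberg over all genes tested), or DESeq2 1.42.0 as an alternative. SE is the log2 difference divided by the root of F. Intervals of ratios and the limit of 3 UMIs cover counting error only. The fitting code was tested on simulated data. Stress comparisons used 5 libraries, all others 6. Neuron, muscle and glia sums shared their libraries as blocks. Between classes, up to 6 called genes of largest log2 difference in each direction were given by values, among clusters up to 8 by smallest p, and under treatments every called gene or the 5 of smallest p. Named partner genes were the passing ones of smallest p. Cabp1 in Stress and Gem over Control were chosen after their values were seen. The members, lists and comparisons were chosen with earlier results of these data known. Control and Stress share replicate numbers 1 and 2 in the labels, which name no shared animal or batch. Promoter windows came from RefSeq (GRCm38.p6). Values of a few genes are not reported here.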

Additional observations from a re-analysis of the deposited data

Results flagged for a closer look

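Cacna1b differed between cell classes in its response to dexamethasone: the effect in neuron-like nuclei minus that in glia-like nuclei was -2.11 ± 0.40 on the log2 scale (edgeR adjusted p = 0.0128), from an interaction term in a single model. The comparison was added after seeing the data. It rests on 1 Dexamethasone library. Adjusted p was 0.0838 in DESeq2 (-2.25) and 0.178 (-1.56) with nuclei of at least 500 genes and at most 2% mitochondrial UMIs.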

How the results depend on the processing

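Cacna1b in Dexamethasone glia stayed past the threshold under every other setting tried on whole glia, at 1.41 to 2.26, but its direction turned within cluster 0 (-1.91, adjusted p = 0.312). The count of channel genes called in Dexamethasone glia was 0 within clusters 0 and 8. Without Control 1 and Stress 1 together, 1 channel gene passed under Stress in neurons and 1 in muscle. With UMIs thinned to equal totals, only 12 channel genes were tested between classes. Of these, 12 passed for neurons against glia, 10 for muscle against glia and 11 for neurons against muscle. Over all genes then tested, 964, 855 and 965 passed in the same order. Genes enter only if enough UMIs are left after thinning, so these counts describe the genes left. Among glia clusters, 2 passed with no filter on low counts and 1 to 2 when leaving out each library in turn. With the replicate number as a block, Cacna1b was 1.69 (adjusted p = 9.94e-05) and no call of a channel gene changed. The labels give these numbers no meaning as a pairing. Same-numbered Control and Stress deviations from the group mean correlated across genes by 0.0137 and 0.0709 in neurons, -0.154 and -0.0222 in glia and 0.0588 and 0.113 in muscle. The deviations of the 2 Control libraries are equal and opposite, so each value returns with its sign turned for the other Control library. They are therefore no separate checks and cannot decide whether a pairing exists. Calls over all genes moved more. Under Stress, neurons went from 0 to 145 with no filter, 60 without both shallow libraries, 27 with the block and 14 in DESeq2; glia from 137 to between 32 (stricter nuclei) and 281 (no mitochondrial filter), and muscle from 10 to between 0 and 103. Under Dexamethasone, neurons went from 0 to at most 213, glia from 456 to 211 in DESeq2 and muscle from 38 to between 3 and 132. Between neurons and glia the count went from 4109 to 964 when thinned and 6350 without the mitochondrial filter, between muscle and glia from 2850 to 855 and 5034, and between neurons and muscle from 3420 to 965. Among clusters it fell when thinned from 1597 to 784 in neurons and from 609 to 245 in glia, and the stress difference between neurons and glia went from 17 to between 1 and 76. Thinning left fewer genes to test in each of these comparisons; other causes were not tested.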

Other observations

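A small set of 23 enteroendocrine-like nuclei, hormone-releasing cells of the epithelium, also held calcium channel genes. Cacna1a had 1927 and 1429 CPM in the Control libraries, then 0, 549 and 2201 under Stress and 565 with dexamethasone, and its pooled level of 1463 CPM compared with 716 in neuron-like nuclei. Scn3a had 531 to 2400 CPM there, Cacna2d1 739 to 3313 and Cacna1c 0 to 1169. Scn9a and Scn7a had 0 UMIs, which allows up to 42.6 CPM for each. With 1 to 8 such nuclei in a library, these levels are given as values only.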
